A study of Mus musculus with 30 samples.

Results

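Deletion I-TEL was compared with deletion J, both of them heterozygous deletions on the X chromosome of female mouse embryonic stem cells (mESCs), to ask whether a gene that keeps 2 copies, loses 1 copy or sits beside a larger loss is expressed differently. The members are the 4 libraries labelled Deletion I-TEL (2 clones) and Deletion J (2 clones) out of 30 bulk RNA-seq libraries in the series. They were chosen by line, with earlier results of these data known. All 4 descend from a cross of 129/Sv (called *Mus*) and Cast/Ei (called *Cast*), so that reads over a polymorphism can be assigned to 1 of the 2 X chromosomes. Both lines lack 1 copy of *Rnf12* (*Rlim*), were made in the second Rnf12+/- line and carry the same library name prefix as 16 other libraries. Deletion J runs over chrX:134112553-145486844 (11.4 Mb, mm10) and deletion I-TEL over chrX:114561262-169370103 (54.8 Mb), both on the *Mus* X, so that J lies inside I-TEL. In the study's account the clones are independent, the neomycin cassette stays at the cut, I-TEL arose as a larger loss than was intended, and the cells were grown with FBS and LIF on irradiated feeder fibroblasts that were depleted by pre-plating. With 2 clones per line, the p-values of single genes rest on a spread estimated over all 30 libraries, not on that of these 4 alone.

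By the stated borders, a gene inside J has 1 copy in both lines. A gene inside I-TEL but outside J has 1 copy in I-TEL and 2 in J. Every other gene was taken to have 2 copies in both, which is an assumption. Both lines lack 1 copy of *Rnf12*, and some autosomes had shifted allelic shares or levels, as described below. Values per copy were not corrected for these. X-chromosome upregulation (XCU) is the increased output of a single active X that brings X-linked genes closer to the output of autosomal pairs. It is studied in mESCs since female mESCs keep both X chromosomes active until they differentiate, and *Xist*, the RNA that silences an X, is then barely transcribed. *Rnf12* encodes an E3 ubiquitin ligase that promotes *Xist* expression, and cells with 1 copy are slower to inactivate an X. A partial deletion leaves 1 copy of some genes and 2 copies of the rest on the same chromosome, which separates the response of the gene from that of the chromosome.

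Of the genes in the table, 248 lie inside J, 562 were lost only in I-TEL, and 2 lie across a border. Expressed genes were those with a mean over 5 TPM, a level scaled for gene length and library depth, in XX *Rnf12*+/- cells, which left 50 genes inside J (45 protein-coding), 89 lost only in I-TEL (70 protein-coding), 337 on the X outside both deletions (258 protein-coding) and 11204 on autosomes (9759 protein-coding). Library totals were 10150454 and 10296035 counts for I-TEL and 9634385 and 10513479 for J.

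Allelic counts matched the stated borders in both lines, summed by region and in the expressed protein-coding genes with such counts nearest each border. Exceptions were *Tmem164* and *Cstf2* near the borders of J, and single genes elsewhere in the deletions were not all checked. Over the protein-coding genes lost only in I-TEL, the *Mus* share of allelic counts was 2.16% (95% Wilson interval 1.70 to 2.75) and 3.24% (2.67 to 3.92) in the I-TEL clones and 52.1% (50.8 to 53.4) and 51.0% (49.7 to 52.2) in the J clones. Inside J the share was low in all 4 libraries, at 1.101% and 3.01% in I-TEL and 3.79% and 1.99% in J, against 54.0% and 53.8% in XX *Rnf12*+/- cells. Outside both deletions it lay between 51.0% and 51.6% in the 4 libraries. These intervals cover counting error only. *Hccs*, which encodes holocytochrome c synthase and lies 49.7 kb inside the telomere-side border of I-TEL, had 2 and 3 *Mus* counts in the I-TEL clones and 64 and 66 in the J clones, so the loss reached this gene in both I-TEL clones. *Rps6ka6*, a ribosomal S6 kinase gene 3023 kb before the centromere-side border of I-TEL, had *Mus* counts of 92 and 112 in I-TEL and 85 and 125 in J, and *Chm*, a Rab escort protein gene 1376 kb before it, had 11 and 10 in I-TEL and 12 and 17 in J. *Lrch2*, the first expressed protein-coding gene after the telomere-side border of J, kept 12 and 17 *Mus* counts in J and had 0 in both I-TEL clones. *Tmem164*, inside J and 2643 kb before that border, had *Mus* counts in all 4 libraries. They were 5 and 15 beside 37 and 36 *Cast* in I-TEL, and 10 and 4 beside 39 and 31 in J. The next genes towards the border, *Ammecr1* and *Alg13*, had 0 to 2 *Mus* counts per library, and the cause was not tested.

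The other exception was *Cstf2*, which encodes a subunit of the cleavage stimulation factor of mRNA 3′ end formation and ends 25.7 kb before the stated start of J. It should hold 2 copies in J, but its *Mus* count was 0 in each J clone beside 6 and 8 *Cast* counts. The 14 allelic counts of both J clones allow a *Mus* share of up to 21.4%, against 22 *Mus* counts of 41 in XX *Rnf12*+/- cells. Its total level was 36.3 and 37.6 TPM in I-TEL, 34.3 and 35.9 TPM in J and 65.6 and 64.7 TPM in XX *Rnf12*+/- cells. In J this gene thus had the allelic counts and the level of a gene with 1 copy, and its difference of 1.04 per copy (log2, SE 0.19) between the lines rests on the copy number set by the stated border. *Tspan6* and *Timm8a1* near the same border, and *Apool* and *Ube2dnl1* near the centromere-side border of I-TEL, had no allelic counts in the 4 libraries. The first expressed protein-coding gene inside the latter border with allelic counts was *Diaph2*, 15188 kb in. It had 1 and 0 *Mus* counts in I-TEL and 3 and 4 in J. Between *Chm* and *Diaph2* the counts thus do not place this border.

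**Figure D1:**
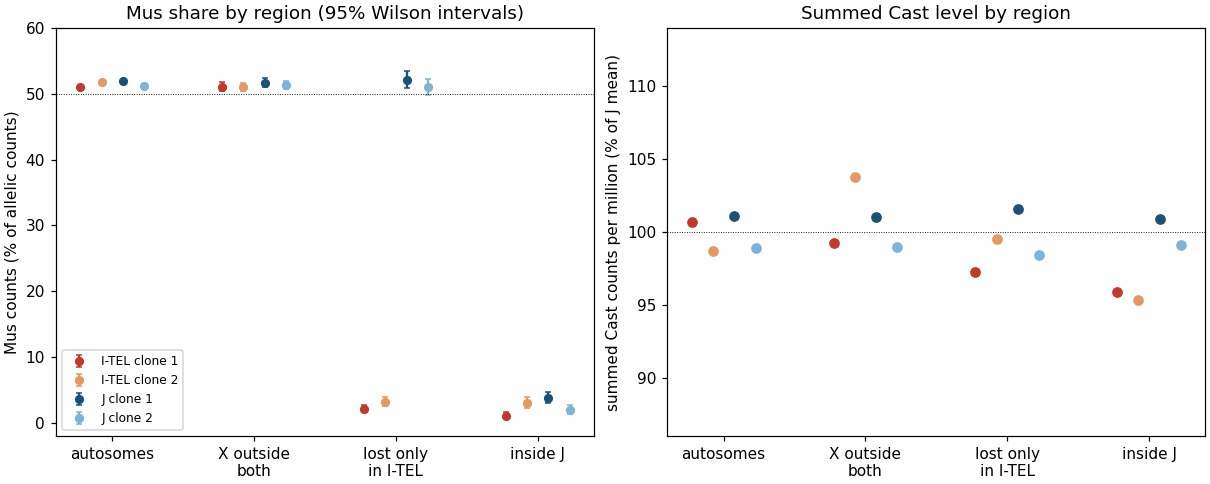
Left, share of allelic counts assigned to *Mus* in each library for expressed protein-coding genes of 4 regions (bars, 95% Wilson intervals); right, summed *Cast* CPM of the same genes as a percentage of the J mean. The *Mus* share of genes lost only in I-TEL was 2.16% and 3.24% in I-TEL and about that of autosomes in J, and the summed *Cast* level of every region stayed within 95.3% to 104% of the J mean.

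*Rlim* was at 64.0 and 72.8 TPM in I-TEL and 59.8 and 70.9 TPM in J, and its reads came from the *Cast* allele in all 4 libraries, with 7 to 9 *Mus* and 195 to 236 *Cast* counts. *Xist* was at 0.93 and 1.69 TPM in I-TEL and 1.28 and 1.63 TPM in J. Neither gene separated the lines. The pluripotency factors *Esrrb* (845 and 840 TPM against 773 and 789) and *Pou5f1* (1754 and 1587 TPM against 1801 and 1725) were high in all 4 libraries. *Nanog* was at 644 and 764 TPM in I-TEL and 808 and 778 TPM in J, a log2 difference of -0.21 (SE 0.10) with an adjusted p of 0.865.

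The genes lost only in I-TEL were expressed in I-TEL at close to the level that 1 of the 2 copies contributed in J. Of the 70 protein-coding genes, 49 had a total level below that of J (edgeR, adjusted p under 0.05) and 0 had a higher one. Over all 10133 protein-coding genes tested, 0.493% were called lower and 0.0395% higher, and over autosomal protein-coding genes 0.0102% were called lower. The TPM values of the 2 lines did not overlap for 66 of the 70, with I-TEL lower, against 15.2% of all protein-coding genes and 14.6% of those on autosomes. The median log2 difference in total level was -0.94, and 48 of the 70 genes lay between -1.25 and -0.75. Another 10 genes lay below that range and 12 above it, of which *Cstf2* and *Gpr143*, named after their values were seen, were above 0.

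**Figure D2:**
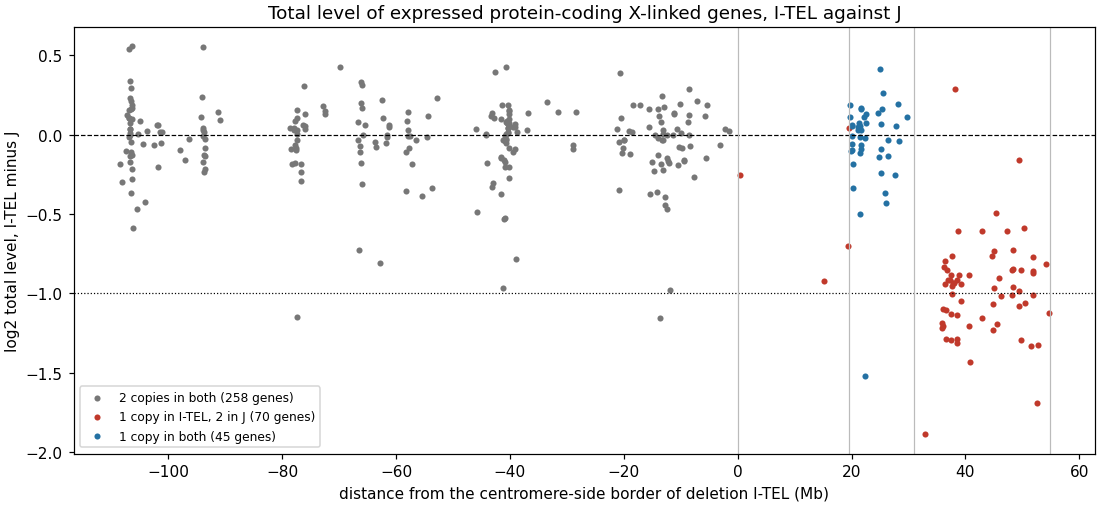
Log2 difference in total level (I-TEL minus J) of expressed protein-coding X-linked genes against the distance of the gene start from the centromere-side border of I-TEL in Mb; vertical lines mark the borders of I-TEL (outer) and J (inner), the dashed line equal levels and the dotted line the level of 1 of 2 copies. Genes outside both deletions and inside J scatter around the dashed line, and genes lost only in I-TEL scatter around the dotted line with a median of -0.94.

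When each value was divided by the copy number, the difference between the lines was small at the median. Per copy, the TPM ranges did not overlap for 26 of the 70 with I-TEL higher (37.1%) and for 12 with I-TEL lower (17.1%). Over all protein-coding genes these shares were 29.9% and 14.7%. The mean TPM per copy of the 70 protein-coding genes was 45.0 and 47.6 in the I-TEL clones and 46.3 and 47.8 in the J clones, which overlap (ratio 0.984, two-sided exact permutation p = 0.667, where 2 against 2 cannot go below 0.333). This mean weighs highly expressed genes most, among them *Tmsb4x*, described below, which was lower per copy in I-TEL. The median log2 per copy was 0.06, against 0.01 over all genes tested. Per copy, 0 of the 70 were called higher and 1 lower, against 0% higher and 0.0197% lower over all protein-coding genes, and 14 of 70 (20.0%) had an unadjusted p under 0.05, against 5.78% of all protein-coding genes. The 27 protein-coding genes in or across region K, the segment that deletion K removes, had a median total difference of -0.95, and the 39 beyond K had -0.96. The ratio of mean TPM per copy was 1.59 before J, 1.04 in K and 0.941 beyond K, where *Tmsb4x* lies. In K both I-TEL clones had a higher mean than both J clones, and beyond K both had a lower one. The 4 before J were *Ube2dnl1*, *Diaph2*, *Tspan6* and *Cstf2*, with a median of -0.48. Of these *Diaph2*, a formin gene, was at 7.90 and 9.31 TPM in I-TEL and 14.0 and 17.9 TPM in J and was called lower (log2 -0.92, SE 0.20, adjusted p = 0.0492), a call lost without any 1 of the 4 libraries (adjusted p = 0.0844 to 0.634).

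Among 8 chromatin and cohesin genes lost only in I-TEL, 7 were expressed and 5 had a lower total level, with a median log2 of -0.88, and none was called per copy. *Kdm5c*, an H3K4 demethylase gene, was at 140 and 139 TPM in I-TEL and 262 and 267 TPM in J. The 2 lines were far apart and the clones of each almost equal, and the log2 per copy was 0.05 (SE 0.08). *Smc1a*, which encodes a core subunit of cohesin, was at 158 and 161 TPM in I-TEL and 286 and 289 TPM in J, with a log2 per copy of 0.12 (SE 0.07). *Rbbp7*, a histone-binding subunit of several chromatin complexes, was at 412 and 414 TPM in I-TEL and 720 and 739 TPM in J. *Klf8* (34.0 and 46.4 TPM against 57.9 and 61.4) and *Msl3* (13.1 and 11.95 TPM against 19.3 and 23.8), a subunit of the MSL acetyltransferase complex, did not pass the test on total level.

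Of 5 ubiquitin and proteolysis genes, 4 had a lower total level and the median log2 was -0.91. *Huwe1*, a large E3 ubiquitin ligase gene, was at 149 and 176 TPM in I-TEL and 297 and 301 TPM in J. *Usp51*, a deubiquitinase gene, was at 5.74 and 4.90 TPM in I-TEL and 13.6 and 12.4 TPM in J. *Mbtps2*, a membrane protease gene, was at 14.1 and 19.2 TPM in I-TEL and 23.3 and 26.2 TPM in J and did not pass (adjusted p = 0.0643). Of 4 genes of RNA and translation, 3 had a lower total level, with a median of -0.92. *Eif1ax*, a translation initiation factor gene, was at 109 and 120 TPM against 227 and 241, *Zrsr2*, a splicing factor gene, at 28.8 and 31.2 TPM against 56.4 and 59.6, and *Gnl3l*, a nucleolar GTPase gene, at 113 and 110 TPM against 192 and 186. In all 3 both I-TEL clones were below both J clones.

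The metabolic enzymes lay slightly further down than the other lists. Of 15, 13 were expressed, 12 had a lower total level and the median log2 was -1.16, which is -0.16 per copy, while the median per copy was 0.12, 0.09, 0.08 and 0.14 in the other 4 lists. None of the 13 was called per copy. *Pdha1*, which encodes the E1 alpha subunit of pyruvate dehydrogenase, was at 214 and 217 TPM in I-TEL and 482 and 483 TPM in J (log2 per copy -0.19, SE 0.09, adjusted p = 0.861). *Prdx4*, a peroxiredoxin gene, was at 53.8 and 57.8 TPM against 149 and 145 (log2 per copy -0.43, SE 0.13, adjusted p = 0.543). *Prps2*, a phosphoribosyl pyrophosphate synthetase gene, was at 41.2 and 50.8 TPM against 113 and 111, and its paralogue *Prps1*, which lies inside J, was at 330 and 339 TPM against 414 and 430. For both synthetase genes the 2 lines did not overlap per copy, and neither was called (adjusted p = 0.882 and 0.689). At the other end of this list *Ctps2*, a CTP synthase gene, was at 25.3 and 22.8 TPM against 43.3 and 41.3.

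Of 17 signalling and trafficking genes, 13 were expressed and 8 had a lower total level, with a median of -0.86. This list held the only protein-coding gene on the X called per copy. *Tmsb4x*, which encodes the actin-sequestering peptide thymosin beta 4, was at 269 and 337 TPM in I-TEL and 951 and 955 TPM in J. Both I-TEL clones were at less than the level of 1 of the 2 copies in J (log2 per copy -0.69, SE 0.12, adjusted p = 0.0388). The adjusted p was 0.0622 with the 20 libraries of the same prefix and 0.119 among protein-coding genes alone. It stayed under 0.05 in the other settings that kept all 4 libraries. In the 16 other libraries of the same prefix *Tmsb4x* per copy ranged from 345 to 570 TPM with a median of 474, so both I-TEL clones were below all of them. Its *Cast* counts were too few to follow that copy, at 2 in each I-TEL clone and 3 and 1 in the J clones. The per-copy call was lost when any 1 of the 4 libraries was left out (log2 -0.55 to -0.83, adjusted p = 0.0547 to 0.779), while the lower total level kept its call in each case. *Ap1s2*, a clathrin adaptor subunit gene, was at 23.1 and 27.1 TPM in I-TEL and 24.0 and 30.9 TPM in J, so that the totals overlapped (log2 per copy 0.84, SE 0.19, adjusted p = 0.245). Its reads in J were mostly from *Cast* (23 and 37 counts beside 5 and 6 *Mus*), and in I-TEL all were (29 and 30). *Map3k15*, a MAP kinase kinase kinase gene, was at 20.7 and 22.9 TPM against 27.7 and 32.2 and did not pass either test.

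**Figure D3:**
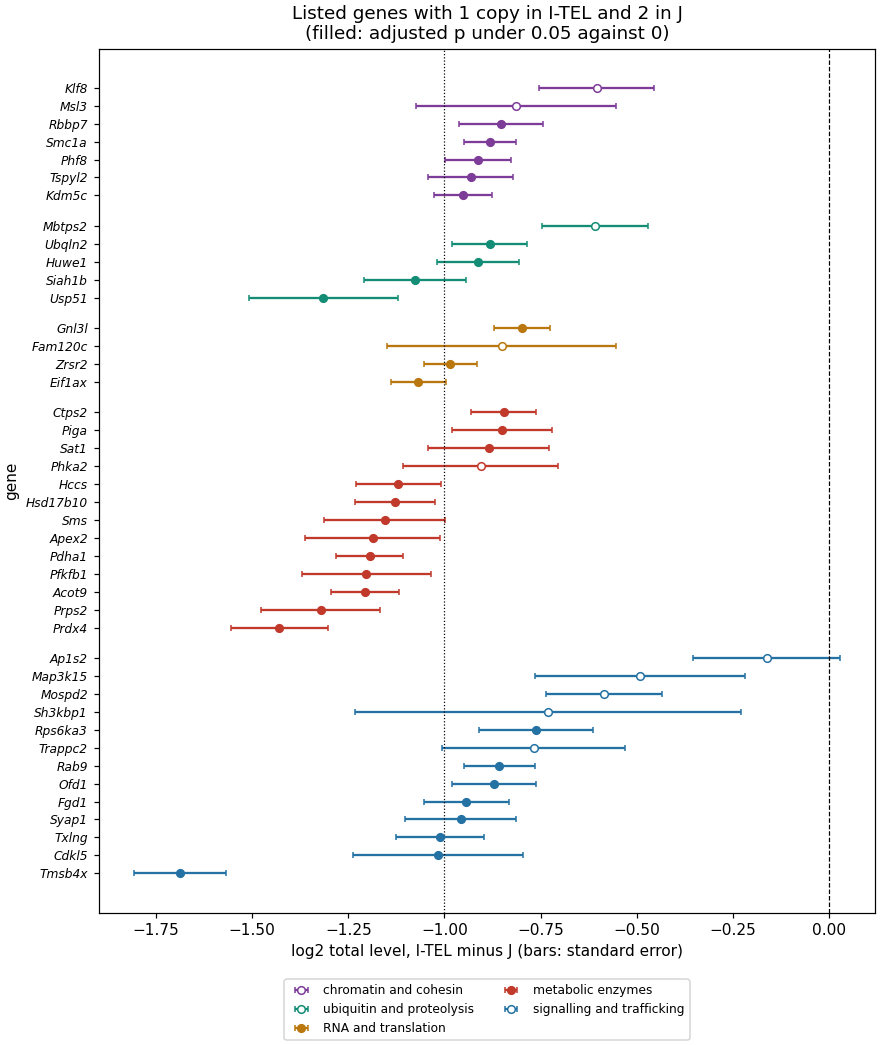
Log2 difference in total level (I-TEL minus J) with its standard error for the 42 expressed genes of the 5 lists of genes lost only in I-TEL, coloured by list; filled points passed the test against 0, the dashed line marks equal levels and the dotted line the level of 1 of 2 copies. Most genes sit near the dotted line, with *Tmsb4x* at -1.69 and *Ap1s2* at -0.16 at the ends.

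The *Cast* allele, which both lines keep, was tested on its own counts in 44 genes lost only in I-TEL that passed a minimum of 20 *Cast* reads in each XX *Rnf12*+/- library. None was called higher or lower (0% of 7203 genes in each direction), 2 of 44 had an unadjusted p under 0.05, and the median log2 was -0.07. Summed over the protein-coding genes lost only in I-TEL, *Cast* counts scaled for depth (CPM) were 4713 and 4823 in I-TEL and 4924 and 4770 in J. Each I-TEL clone was at 95.7% to 101% of a J clone, and the pooled ratio was 98.5% with a counting interval of 94.98 to 102.1%. *Kdm5c* had 172 and 186 *Cast* counts in I-TEL and 172 and 177 in J, *Huwe1* had 449 and 464 against 416 and 437, and *Pdha1* had 254 and 219 against 219 and 219. In sum, the remaining copies thus gave close to as many reads with the *Mus* copy lost as with it present. For single genes among the 44 the log2 ranged from -0.93 to 0.62. Recovery by the test on *Cast* counts was not measured, so the lack of calls does not show equal levels gene by gene.

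Genes inside J have 1 copy in both lines, and here the larger loss around them in I-TEL went with no called change per copy. Of 50 genes, 0 were called in either direction per copy, against 0.0257% higher and 0.0342% lower over all 11681 genes, and 3 had an unadjusted p under 0.05. In the edgeR fit on total level 1 was called lower, the pseudogene *Gm6382* described below (adjusted p = 0.0219). In that fit 0.462% of all genes were called lower. The median log2 was 0.02 and the mean TPM per copy of the 45 protein-coding genes was 118 and 116 in I-TEL and 115 and 120 in J (ratio 0.996, two-sided exact permutation p = 1). In the 16 other libraries of the same prefix, in which these genes have 2 copies, the mean was 104 to 122 TPM per copy. Summed *Cast* counts were 2925 and 2908 CPM in I-TEL and 3076 and 3024 CPM in J, so both I-TEL clones were lower, at 94.5% to 96.7% of a J clone. The pooled ratio was 95.7% with a counting interval of 91.4 to 100.2% (exact permutation p = 0.333, the smallest that 2 against 2 allow).

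By family, the BEX, TCEAL and ARMCX genes, an X-linked cluster of small adaptor-like and armadillo-repeat proteins, had 14 of 19 members expressed, with a median log2 of 0.01 and 0 called. *Bex1* was at 996 and 894 TPM in I-TEL and 968 and 1006 TPM in J, with 254 and 193 *Cast* counts against 234 and 240. *Bex3* was at 967 and 969 TPM against 910 and 950. *Bex4* differed more between clones than between lines (135 and 210 TPM against 144 and 221). Of the 10 genes of RNA, chromatin and translation 8 were expressed, with a median of 0.05 and 0 called. *Rpl36a*, a ribosomal protein gene, was at 499 and 466 TPM against 489 and 495, and *Morf4l2*, a chromatin complex subunit gene, at 323 and 362 TPM against 310 and 309. *Alg13*, a glycosyltransferase subunit gene and the last expressed protein-coding gene before the telomere-side border of J, was at 117 and 127 TPM against 107 and 114 and had 352 and 330 *Cast* counts against 278 and 347. The 9 genes of metabolism and proteolysis were all expressed, with a median of -0.04 and 0 called. *Prps1* was the lowest of them (log2 -0.37, SE 0.13), and *Acsl4*, a fatty acid CoA ligase gene, was at 28.8 and 36.1 TPM against 29.6 and 31.5.

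On the X outside both deletions, 337 genes were tested and 2 were called lower and 0 higher, both of them the processed pseudogenes *Gm6292* and *Sms-ps* described below. None of the 258 protein-coding genes was called, 16 had an unadjusted p under 0.05 and the median log2 was 0.00. The mean TPM per copy was 65.3 and 64.5 in I-TEL and 63.3 and 65.1 in J. The *Mus* allele of these genes sits on the cut chromosome, and of 166 genes with enough *Mus* counts none was called (0% of 7649 genes in each direction), 8 had an unadjusted p under 0.05 and the median log2 was 0.02. The *Cast* allele of 153 genes gave the same count of calls, 0, with 4 at an unadjusted p under 0.05.

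On autosomes, 1 of 11204 genes was called, *Acot10*, with 612 (5.46%) at an unadjusted p under 0.05. The count was 0 without clone 1 of I-TEL or without either J clone, 2 without clone 2 of I-TEL, and 7 with DESeq2. When the X-linked genes entered the same fit on their total level, the adjustment over all genes changed and 6 autosomal genes passed, 2 of them lower, which is 0.0179% of autosomal genes where 0.462% of all genes were called lower. *Cep170b*, a centrosomal protein gene, was at 155 and 127 TPM in I-TEL and 92.9 and 98.5 TPM in J, *Limk2*, a kinase gene of the actin cytoskeleton, at 71.1 and 64.7 TPM against 43.6 and 49.3, *Ltbp4*, a latent TGF-beta binding protein gene, at 148 and 152 TPM against 97.9 and 104, and *Arhgef25* at 39.3 and 39.3 TPM against 23.7 and 28.6. All 4 were higher in both I-TEL clones, by a log2 of 0.52 to 0.56, and their adjusted p-values were 0.0566 to 0.175 in the fit per copy. The other 2 were *Acot10* and *4930519F09Rik*, both lower. These 6 were named after their values were seen.

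The gene lists of the stem cell state held no called gene. Of 13 genes of naive pluripotency all were tested, with a median log2 of 0.03 and a range of -0.21 (*Nanog*) to 0.38 (*Dppa3*), and the 9 genes of core stem cell identity had a median of -0.01. The 14 genes of the formative and primed state had a median of -0.20, the 14 of FGF and MAPK feedback -0.02, the 9 of LIF and STAT3 0.00 and the 8 tested genes of DNA methylation -0.03, against 0.01 over all genes. The 13 p53 targets had a median of 0.03 and the 14 tested genes of the integrated stress response -0.11. Of 13 germline genes that respond to DNA methylation 7 were tested, with a median of -0.45 and 0 called, the lowest being *Stk31*, named after its value was seen (4.01 and 5.10 TPM against 10.9 and 9.84, adjusted p = 0.608). None of the genes of the two-cell-like state that the table holds passed the expression minimum. The 8 tested genes of primitive endoderm had a median of -0.11. Markers of feeder fibroblasts summed to 418 and 665 TPM in I-TEL and 741 and 564 TPM in J, so the lines overlapped, and their median log2 was -0.31 with 0 of 13 tested genes called.

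Many proteins of the lost segment work in complexes with autosomal products, and 36 autosomal partners and paralogues were followed. None was called, and their log2 ranged from -0.22 to 0.17 with a median of -0.04. The examples here were picked after their values were seen, as partners of the X-linked genes described above. *Smc3* and *Rad21*, which close the cohesin ring with SMC1A, were at 173 and 175 TPM against 171 and 163 and at 316 and 323 TPM against 314 and 302. *Pdhb* and *Dlat*, the partners of PDHA1 in pyruvate dehydrogenase, were at 111 and 111 TPM against 103 and 114 and at 76.9 and 76.9 TPM against 79.6 and 79.6. *Kdm5b*, the autosomal paralogue of *Kdm5c*, was at 181 and 201 TPM against 194 and 191, *Rbbp4*, that of *Rbbp7*, at 231 and 244 TPM against 239 and 233, and *Tmsb10*, that of *Tmsb4x*, at 570 and 558 TPM against 556 and 582. In each of these 7 pairs of lines the difference was a log2 of at most 0.08 in size.

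Of the 7 genes called per copy across the genome, 6 are retrocopies, that is, copies of a spliced transcript inserted elsewhere in the genome. The autosomal retrogene *Acot10* (chr15:20665214-20666750) resembles *Acot9* (chrX:155262443-155297654), an acyl-CoA thioesterase gene lost only in I-TEL. *Sms-ps* (chrX:62775585-62776685) and *Gm6292* (chrX:105140849-105141943), on the X outside both deletions, resemble the spermine synthase gene *Sms* (chrX:157443855-157492287), also lost only in I-TEL. The following stretches of 30 bases, read 5′ to 3′ on the transcript strand from GENCODE M21 transcripts (GRCm38), show how alike copy and parent are, with the bases that differ in capitals.
Acot10, transcript bases 98 to 127: atgaagcgggcagcgatGAggctttggacc
Acot9, coding bases 1 to 30: atgaagcgggcagcgatACggctttggacc
Gm6292, transcript bases 315 to 344: gggtgaagcAattaccacccatagttcgAg
Sms, coding bases 320 to 349: gggtgaagcGattaccacccatagttcgCg
*Acot10* was 97.1% identical to *Acot9* over 96.8% of its length, and 23.1% of its windows of 50 bases, the length of a read, occur unchanged in *Acot9* transcripts. *Gm6292* was 95.8% identical to *Sms* over its whole length with 17.2% of such windows unchanged, and *Sms-ps* was 100% identical with all windows unchanged.

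These retrocopies were lower in I-TEL although the lines have the same number of copies of them. *Acot10* was at 4.33 and 4.39 TPM in I-TEL and 12.21 and 10.9 TPM in J (log2 -1.43, SE 0.26, adjusted p = 0.0428), and its parent *Acot9* was at 82.3 and 79.4 TPM against 186 and 179. The adjusted p of *Acot10* was 0.0634 with a minimum of 10 counts, 0.0803 with the 4 libraries alone and 0.0974 with the 20 of the same prefix. With other TMM factors it was 0.046 and 0.0458. *Sms-ps* was at 36.3 and 41.3 TPM against 94.7 and 82.7 (log2 -1.22, SE 0.17, adjusted p = 0.00339), and *Sms* was at 27.8 and 36.5 TPM against 68.8 and 71.2. *Gm6292* was at 0.61 and 1.54 TPM against 12.055 and 10.9 (log2 -3.41, SE 0.47, adjusted p = 0.00339), a larger difference than that of *Sms*. In the XO libraries, which were sequenced as single reads on another instrument, *Gm6292* was at 2.85 and 2.85 TPM where the label gives the *Cast* X and at 15.6 and 18.4 TPM where it gives the 129 X. The calls of *Sms-ps* and *Gm6292* were lost without clone 1 of I-TEL (adjusted p = 0.158 for both) or clone 1 of J (0.105 and 0.0642), and that of *Acot10* without any 1 library (0.238 to 0.779).

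Among all expressed pseudogenes and called genes, 7 outside the segment lost only in I-TEL had their best match in a protein-coding gene of that segment, at 90% identity or more over at least 50% of their length. This search was chosen after the data were seen. The log2 difference was below 0 for all 7, of which 3 were called per copy (*Acot10*, *Sms-ps* and *Gm6292*) and the other 4 had adjusted p-values of 0.111 to 0.971. *Acot10*, which is protein-coding, entered the search only because it was called, so its direction and call were part of its selection. The 6 outside both deletions, *Acot10* among them, had a median log2 of -1.28, whereas 958 copies of autosomal genes had a median of -0.06. Outside both deletions, 37 copies of X-linked genes from there had a median of 0.07. The 4 copies of genes inside J, whose parents have 1 copy in both lines, had -0.37, with 3 of 4 below 0. *4930519F09Rik*, a copy of *Pdha1* on chromosome 10, was at 5.25 and 5.31 TPM against 15.9 and 10.1, and *Gm6382*, a copy of *Rbbp7* that lies inside J, at 86.6 and 93.1 TPM against 149 and 152 (log2 -0.78, SE 0.16, adjusted p = 0.111 per copy and 0.0219 on total level). The smallest difference was that of *Gm13080*, a copy of *Trappc2* (8.72 and 14.5 TPM against 6.62 and 19.9). Whether reads of the parent genes were placed on these copies was not tested.

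In the segment lost only in I-TEL, 17 pseudogenes had their best match in a protein-coding gene elsewhere, and the 16 with an autosomal parent had a median log2 in total level of -0.18, with 13 of 16 below 0 and a range of -0.82 to 0.10, where the 70 protein-coding genes had -0.94. All 3 genes called higher per copy were of this kind. *Gm5648*, a copy of the *Uhrf1* gene, was at 56.2 and 43.6 TPM in I-TEL and 47.9 and 44.0 TPM in J (log2 per copy 1.09, SE 0.14, adjusted p = 0.00339). *Gm6472*, a copy of *Rps7*, was at 94.6 and 112 TPM against 92.3 and 105 (log2 per copy 1.03, SE 0.18, adjusted p = 0.0323), and *Gm15163*, a copy of *Suclg2*, at 74.2 and 60.3 TPM against 69.6 and 66.0 (log2 per copy 0.96, SE 0.14, adjusted p = 0.00483). Their totals overlapped between the lines. Of their windows of 50 bases, 41.5%, 77.9% and 57.8% occur unchanged in the parent. All 3 calls were lost without clone 1 of I-TEL (adjusted p = 0.158 to 0.206) or either J clone (0.064 to 0.779), and that of *Gm6472* also without clone 2 of I-TEL (0.398). Over all 19 pseudogenes lost only in I-TEL the median log2 per copy was 0.79, so the median of all 89 genes was 0.12 where that of the protein-coding genes alone was 0.06.

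**Figure D4:**
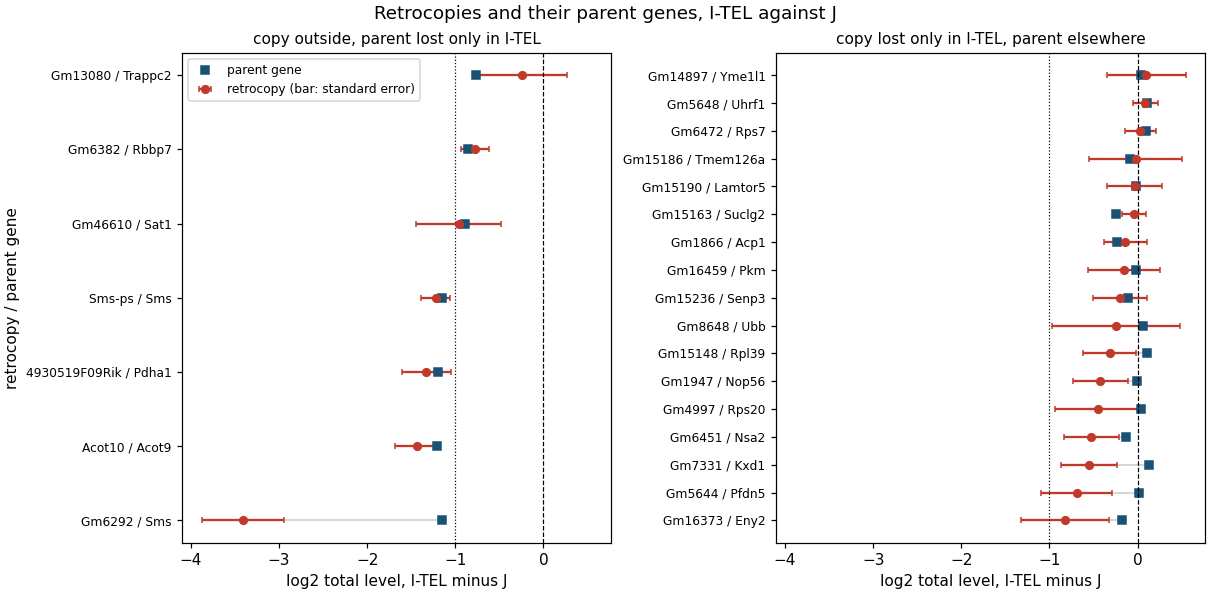
Log2 difference in total level (I-TEL minus J) of retrocopies (circles, with standard error) and of their parent genes (squares), left for 7 copies outside the segment whose parent was lost only in I-TEL and right for 17 copies in the segment whose parent lies elsewhere. On the left all 7 copies are below 0, among them *Acot10*, which entered through its call, and on the right the copies lie between -0.82 and 0.10.

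In clone 2 of I-TEL a segment of chromosome 14 was nearly without *Cast* reads. There the *Cast* share of allelic counts was 1.11% from *Mir17hg* (start 115042879) to the last expressed gene of the chromosome (end 122984035) in this clone, with 981 *Mus* and 11 *Cast* counts, and 49.7% in clone 1 of I-TEL and 49.7% and 51.1% in the J clones. *Spry2* (start 105891947), the last gene before it with enough allelic counts, had reads of both alleles in all 4 libraries. All 21 expressed protein-coding genes of the segment were below both J clones in clone 2 and 5 of 21 were in clone 1, with a median log2 of -0.79 and 0.07 against the J mean. *Ipo5*, an importin gene, was at 523 and 272 TPM in I-TEL and 550 and 554 TPM in J, with 301 and 0 *Cast* counts against 293 and 343. *Zic2*, the lowest gene of the formative list, lies there and was at 50.6 and 34.9 TPM against 79.4 and 82.0. None of the 23 expressed genes was called by edgeR, and 1 had an unadjusted p under 0.05.

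**Figure D5:**
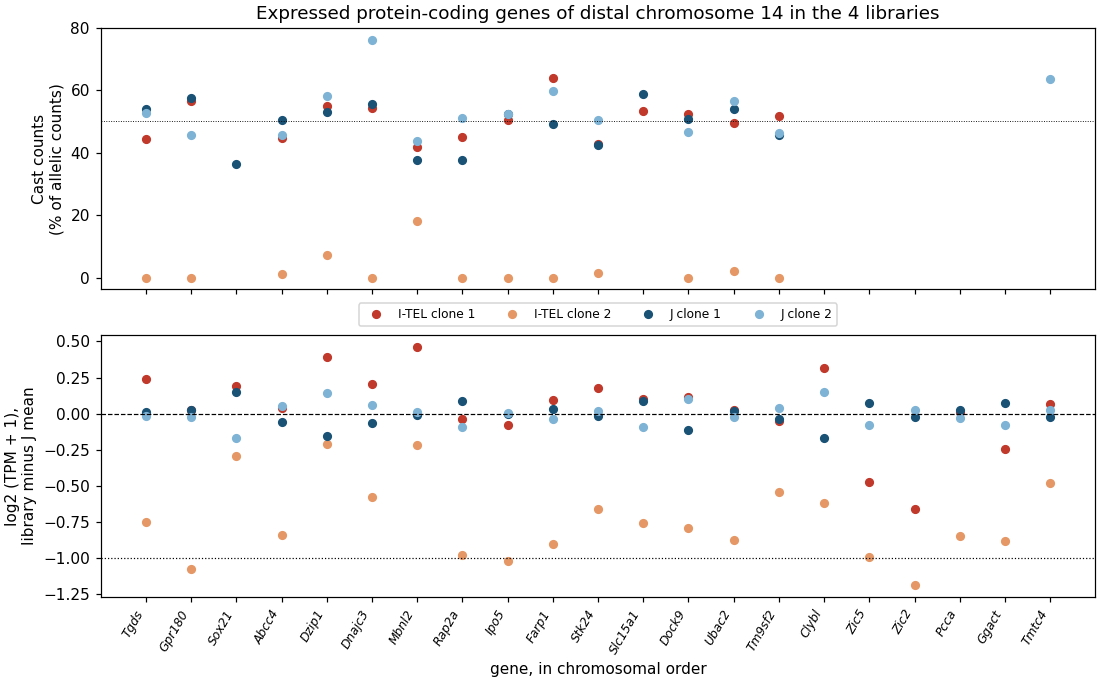
Expressed protein-coding genes of the distal chromosome 14 segment in chromosomal order: above, *Cast* share of allelic counts for genes with at least 10 of them in a library; below, log2 of (TPM + 1) minus that of the J mean. Clone 2 of I-TEL is near 0% *Cast* and has a median of -0.79, and the other 3 libraries lie around 50% and 0.

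Chromosomes 8 and 12 differed from XX *Rnf12*+/- cells in all 4 libraries. On chromosome 8 the *Cast* share was 34.7% to 35.5% in the 4 libraries with a median log2 of 0.48 to 0.55 against XX *Rnf12*+/- cells. Its 10 Mb window starting at 10 Mb was at 48.1% to 49.1% and 0.04 to 0.05. On chromosome 12 the *Cast* share was 68.7% to 70.2%, where XX *Rnf12*+/- cells had 34.7% and 36.0%. Its median log2 of -0.05 to 0.04 joins unlike segments. The window starting at 0 Mb was at 47.3% to 51.0% *Cast* and -0.47 to -0.44. The window starting at 110 Mb was at 77.9% to 79.7% and 0.44 to 0.52. Between the lines the median log2 of each autosome lay between -0.02 and 0.03. Clone 2 of I-TEL had 45.8% *Cast* on chromosome 6, where the other 3 libraries had 48.2% to 49.1% and XX *Rnf12*+/- cells 45.7% and 49.5%. The median log2 of chromosome 6 against the J mean was 0.10 in this clone and 0.01 in clone 1.

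Deletion K, which removes 1 copy of the genes of region K in the first Rnf12+/- line, shares no library with the comparison of I-TEL and J and gives the same genes at 1 copy. Against the mean of deletions A, B, AB, C, C-G, D, F, H and I per copy, the 26 protein-coding genes wholly inside K had a median log2 of 0.07 and 0 called, where they had 0.02 between I-TEL and J. Over all genes in that contrast 1.73% were called higher and 0.265% lower. The 3 genes of K called higher were the pseudogenes *Gm15148* (1.24), *Gm6451* (1.19) and *Gm6472* (1.03), of which *Gm6472* was also called in I-TEL. Without either clone of K, 1 gene was called. Across the 26 protein-coding genes, which share exon length and base composition in both contrasts, Pearson's r between the differences per copy was 0.42 and Spearman's rho 0.30, and across all 30 genes they were 0.64 and 0.54.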

How the data were processed

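Poly(A) RNA-seq libraries (stranded, paired reads of 50 bases for the lines compared here) were analysed from deposited counts per gene, in total and for the *Mus* and *Cast* alleles. The authors used Trim Galore 0.6.7 for trimming, HISAT2 2.2.1 for alignment to an mm10 genome masked at polymorphic bases, and SNPsplit 0.3.4 for the assignment to alleles. The counting tool is featureCounts 2.0.6 on Ensembl 98 in the study's methods and HTSeq 0.12.4 in the submitters' processing notes. Of 55421 genes, 55240 were matched to the GENCODE M21 annotation and 181 were left out.

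Groups came from the sample labels. TPM values were computed from the counts. Genes with a mean over 5 TPM in XX *Rnf12*+/- libraries were fitted with edgeR 4.0.16 (R 4.3.3), quasi-likelihood, on all 30 libraries with 1 term per condition, TMM factors from autosomal genes and the logarithm of copy number as offset for values per copy. P-values were Benjamini-Hochberg adjusted over all 11681 genes, with a threshold of 0.05. Allele counts were fitted likewise for genes with at least 20 counts in both XX *Rnf12*+/- libraries. On simulated data with 11681 genes, the edgeR fit recovered 13 of 50 genes with a true log2 change of 0.5, 88 of 100 at 1 and 49 of 50 at 2, and called 11 of 11481 unchanged genes. The simulated counts followed the fitted dispersion and only autosomal genes were changed, so recovery in the real data may be lower. There 49 of the 70 protein-coding genes lost only in I-TEL were called lower in total level, at a median log2 of -0.94. Region sums and means were compared by exact permutation. DESeq2 1.42.0, other normalizations, filters, sets of libraries, a replicate block and omission of each library were tried. Retrocopies were matched with BLAST+ 2.17.0.

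The members and gene lists were chosen with earlier results of these data known. Named genes were *Rlim*, *Xist*, *Nanog*, *Esrrb* and *Pou5f1*, the 3 expressed coding genes on each side of each border, the largest called changes per region, members of the lists of deleted genes and up to 4 called members of other lists. Retrocopy pairs, genes of the chromosome 14 segment, list extremes and autosomal partners were named after their values were seen.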

Additional observations from a re-analysis of the deposited data

How the results depend on the processing

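No called gene changed sign. Medians and ratios close to no difference changed sign under some settings, among them the median of autosomes, of genes inside J, of the X outside both deletions and of the *Cast* allele, and both ratios of mean TPM. The count of autosomal calls (1) was 7 with DESeq2, 2 with TMM factors from all genes, 0 with a minimum of 10 counts, 0 with TPM over 1, 2 with any count (median log2 -0.0178), 4 with the 4 libraries alone, 2 with the 20 libraries of the same prefix and 0 among protein-coding genes alone. Inside J (0) it was 1 with DESeq2, with the 4 libraries and with the 20 libraries, and the median with any count was -0.0430. Per copy among genes lost only in I-TEL (4, median 0.118) it was 0 for protein-coding genes alone, with medians of 0.181 (any count) and 0.0566 (protein-coding), and in total level (49) the medians were -0.816 and -0.943. On the X outside both deletions (2) it was 1 with DESeq2 and 0 for protein-coding genes. *Cast* calls (0) were 4 with the 4 libraries and 2 with the 20, *Mus* calls (0) were 5 with the 4 libraries, and the calls in K (3) were 0 for protein-coding genes. The ratio of mean TPM per copy was 1.03 inside J as a per-gene median, and 1.11 (per-gene median) or 0.984 (protein-coding) among genes lost only in I-TEL. The cause was not tested, other than that protein-coding genes alone leave out pseudogenes. Replicate numbers did not pair the samples (r = -0.111 over 11204 genes). With a replicate block the calls were 0 on autosomes, 0 inside J, 5 per copy and 51 in total among genes lost only in I-TEL, and 2 on the X outside. With the numbers crossed, an alternative chosen after seeing the data, they were 0, 0, 5, 49 and 2. Without each library in turn, where a lone clone is assumed to vary like the other groups, calls ranged from 0 to 2 on autosomes (median 0.0104 to 0.0151), 0 to 0 inside J (-0.0107 to 0.0527), 0 to 2 per copy (0.0784 to 0.116) and 42 to 45 in total (-0.922 to -0.884) among genes lost only in I-TEL, 0 to 2 on the X outside (-0.00748 to 0.0122), 0 to 0 for *Cast* (-0.106 to 0.125 inside J, -0.0860 to 0.0276 lost only in I-TEL), 0 to 1 for *Mus* and 1 to 1 in K (0.0547 to 0.141), with ratios of 0.969 to 1.01 inside J and 1.04 to 1.08 among genes lost only in I-TEL. Low genes had larger errors and fewer calls, and the part of depth in this was not tested: among the 24 lowest of the 70 protein-coding genes the median SE was 0.234 and 10 were called, and among the 24 highest it was 0.111 and 22 were called.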

Other observations

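Members of the deleted-gene lists below the expression minimum were read as values only. *Scml2*, a Polycomb-related gene lost only in I-TEL, was at 2.52 and 3.33 TPM in I-TEL and 5.89 and 8.73 TPM in J, with both I-TEL clones lower. *Reps2* was at 0.803 and 0.691 TPM against 1.42 and 1.16, and *Alas2*, the erythroid enzyme of haem synthesis, had 0 and 1 counts against 1 and 0. Inside J, *Tceal5* was at 2.64 and 3.47 TPM against 3.30 and 3.82.

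In the XO libraries, where all X-linked genes have 1 copy, the 70 protein-coding genes lost only in I-TEL had a median log2 per copy of -0.24 against XX cells. The rest of the X was similar, with -0.29 for the 45 inside J and -0.27 for the 258 outside both deletions. Over all protein-coding genes it was -0.06. Across these 70 genes Pearson's r with the difference between I-TEL and J was -0.26 and Spearman's rho -0.11, a description over genes that share libraries. The instrument and read type of the XO libraries cannot be told apart from their karyotype.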
